A study of Homo sapiens with 12 samples.

Results

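Aminoacyl-tRNA synthetases, the enzymes that load each amino acid onto its tRNA, were examined in A375, an established human melanoma cell line. The 7 genes were chosen by symbol among the 4918 genes analysed here, which run in alphabetical order from A1BG to FAM46B. AARS, CARS, DARS and EPRS make the 4 cytosolic enzymes for alanine, cysteine, aspartate and, in EPRS, both glutamate and proline. AARS2, CARS2 and EARS2 make the 3 mitochondrial enzymes for alanine, cysteine and glutamate. The cells were left as controls or were treated for 24 h with SB-3CT, a small-molecule inhibitor of the gelatinases MMP2 and MMP9, with interferon gamma (IFNγ, a cytokine made by activated T cells), or with SB-3CT and IFNγ together, in 4 groups of 3 samples each. The treatment note mentions a vehicle, without naming it or saying which groups received it, and all 12 samples come from the same cell line, so nothing here describes other melanomas. The study's figure legend covering these RNA-seq results speaks of 3 independent repeats of all experiments. It does not say whether the 3 samples of a group were those repeats, and the sample labels do not name separate cultures. The p-values therefore measure the spread between these samples, which may be technical.

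Each synthetase recognises its own amino acid and the tRNAs for it, joins them at the cost of ATP, and in this way sets the genetic code at the step where protein synthesis draws on free amino acids. The cytosol and the mitochondrion each need a set of charged tRNAs, and most mitochondrial enzymes are encoded by nuclear genes of their own, whose symbols end in 2. In the cytosol several synthetases, EPRS and DARS among them, sit together in a multisynthetase complex, whereas AARS and CARS are not part of it. When uncharged tRNAs build up, the kinase GCN2 (EIF2AK4) phosphorylates eIF2, the translation of ATF4 rises, and ATF4 induces genes of amino acid supply, among which several cytosolic synthetase genes are known targets. EPRS is also known for a second role, as part of a complex that silences the translation of some mRNAs in IFNγ-treated myeloid cells.

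On hg19, with the positions of GENCODE, all 7 genes lay on the minus strand and were protein-coding. AARS spanned chr16:70285886-70323610, CARS chr11:3022152-3078843, DARS chr2:136663451-136743670 and EPRS chr1:220141942-220219872. The mitochondrial genes spanned chr6:44266468-44281084 (AARS2), chr13:111293759-111365950 (CARS2) and chr16:23532075-23569052 (EARS2). Values are of whole genes and were not resolved to exons.

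Promoter sequences are shown for the genes on which the comparisons turn, since AARS and CARS were higher with SB-3CT, EPRS was lower, and EARS2 is the mitochondrial partner of EPRS. They come from RefSeq on GRCh38.p14, where 5 of the 7 genes matched with 8 promoters, each from 250 bases before the start of transcription to 50 after it. AARS2 and DARS had no entry. Searched on both strands were TGATGNAA (the core of the amino acid response element bound by ATF4 with C/EBP proteins), CCAAT (the CCAAT box), CACGTG (the E-box) and TGACGTCA (the cAMP response element). Of all 35116 promoters in the table, 3.62% held TGATGNAA, 34.6% CCAAT, 7.26% CACGTG and 1.85% TGACGTCA. No search letters overlapped between motifs in the members. All 4 stretches are from the minus strand, written 5′ to 3′, at chr16:70289507-70289726 for AARS, chr11:3057418-3057537 for the first CARS promoter, chr1:220046506-220046625 for EPRS and chr16:23557351-23557470 for the first EARS2 promoter. Capitals mark TGATGNAA read on the opposite strand in AARS and CARS, and CACGTG in EARS2.
AARS: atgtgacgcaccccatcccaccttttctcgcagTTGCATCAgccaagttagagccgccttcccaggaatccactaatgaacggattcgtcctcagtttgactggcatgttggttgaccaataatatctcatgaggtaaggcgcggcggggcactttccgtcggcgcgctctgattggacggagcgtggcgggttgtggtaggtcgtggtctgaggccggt
CARS: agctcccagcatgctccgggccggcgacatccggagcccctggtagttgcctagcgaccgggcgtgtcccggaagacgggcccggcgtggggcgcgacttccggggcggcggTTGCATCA
EPRS: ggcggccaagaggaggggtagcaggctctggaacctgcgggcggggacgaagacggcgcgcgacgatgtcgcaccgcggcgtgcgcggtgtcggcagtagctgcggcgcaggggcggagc
EARS2: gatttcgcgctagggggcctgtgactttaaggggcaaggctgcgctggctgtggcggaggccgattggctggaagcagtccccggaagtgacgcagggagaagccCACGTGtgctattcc

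The AARS promoter and the first CARS promoter held the same 8 letters, TTGCATCA. They stood at position -187 in AARS and at position -2 in CARS, where they span the start of transcription. The second CARS promoter (chr11:3040985-3041104) held no match to any of the 4 motifs. EPRS held no match to any of the 4 motifs in its window. CACGTG stood at -15 in the first promoter of EARS2, at 10 in its second, which overlaps the first, and at -3 in the first promoter of CARS2. CCAAT was matched in promoters of AARS, CARS, CARS2 and EARS2, and TGACGTCA in none of the 8. These matches describe the letters of these windows and nothing about which factor was bound.

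Expression is given in FPKM, the fragments mapped to a gene per kilobase of its transcript, relative to all mapped fragments. It is a level per transcript length, so genes may be compared with each other on it. AARS had the highest mean over the 12 samples with 60.2 FPKM, above 92.0% of all genes, followed by CARS2 with 42.9, CARS with 31.3, EPRS with 31.1, DARS with 18.6, EARS2 with 14.1 and AARS2 with 6.59 FPKM, the last above 61.8% of all genes. Neither compartment was uniformly the higher, since the mitochondrial CARS2 lay above 3 of the 4 cytosolic genes while AARS2 lay below all of them. Neighbours in this order were not always apart. CARS and EPRS differed by less than their spread over the samples, and their order depended on the group, EPRS standing above CARS in the controls (36.3 ± 0.103 against 27.8 ± 0.646 FPKM, SD, n = 3) and below it with SB-3CT and IFNγ (22.9 ± 1.57 against 31.3 ± 1.83 FPKM, SD, n = 3). With IFNγ alone, CARS2, EPRS and CARS overlapped, at 36.3 ± 2.10, 36.7 ± 2.65 and 33 ± 2.42 FPKM (SD, n = 3). RNA was pooled from all cells of a sample, so fewer cells of a type and less RNA per cell cannot be told apart.

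The marks that the labels call for were read as sums of marker genes. All 9 melanoma markers were in the table, but only 6 had a mean of at least 1 FPKM over the 12 samples. The 9 together summed to between 92.6 and 121 FPKM per sample. Of 12 markers sought for T cells, B cells, macrophages, endothelium, epithelium, liver and muscle, 9 were in the table. These summed to between 0.211 and 0.979 FPKM, and 0 of them had a mean of at least 1 FPKM. The 5 IFNγ response genes in the table summed to between 1874 and 2177 FPKM without IFNγ and to between 6541 and 6705 with it. Absolute depth is unknown, and relative depth, read from the lowest values, ran from 87.1% to 149% of the control mean. The median gene was lower in the samples with both agents, although their summed FPKM over the table was not, and a change of scale and one of composition cannot be told apart here. Among the 3177 genes with a mean of at least 1 FPKM, the median log2 change was -0.20 against IFNγ and -0.21 against SB-3CT, but -0.03 for SB-3CT against control and -0.04 for IFNγ against control. Changes are therefore given as deposited and, where it matters, relative to that median.

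**Figure D1:**
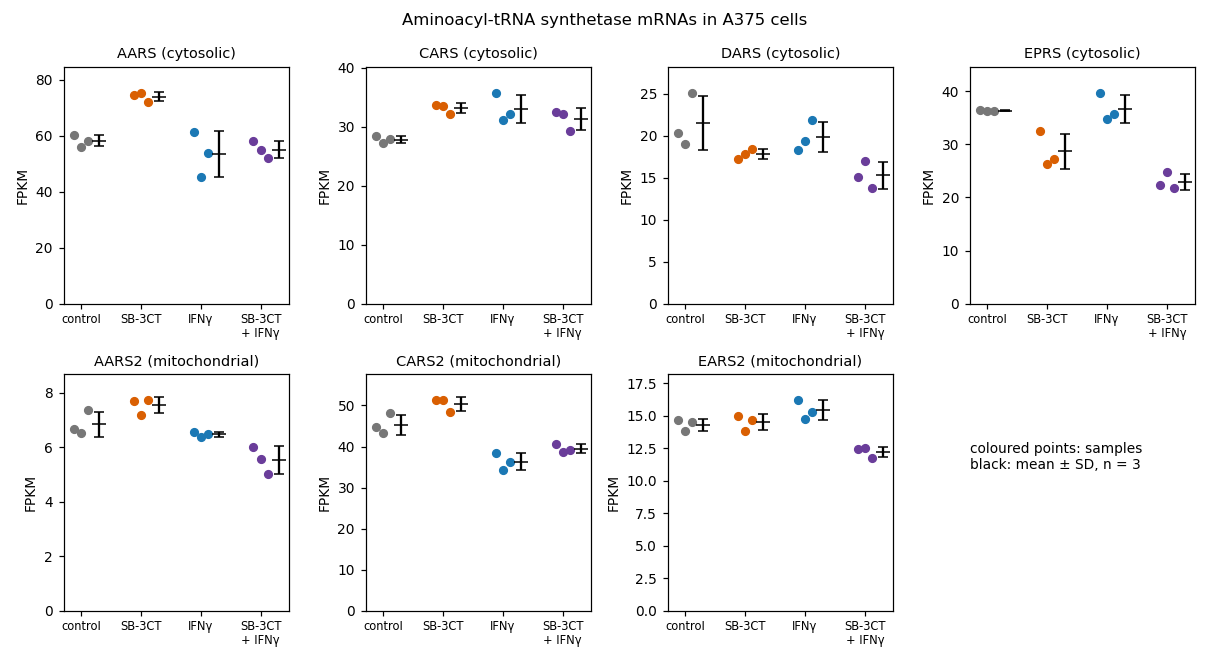
FPKM (vertical axes, from 0) of the 7 synthetase genes in each sample, with coloured points for the samples of the 4 groups and black bars for the mean ± SD (n = 3). AARS stood highest with SB-3CT alone, and EPRS was lowest with SB-3CT and IFNγ, at 22.9 FPKM against 36.7 with IFNγ.

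SB-3CT without IFNγ was compared with control to see what the inhibitor did to these genes on its own. AARS and CARS rose and EPRS fell, while no mitochondrial gene passed the test. So of the 7 genes 2 were higher and 1 was lower at a Benjamini-Hochberg adjusted p under 0.05 in limma, where 12.2% of all genes were called, 5.37% higher and 6.87% lower. Groups did not overlap for 5 of the 7, 3 higher and 2 lower, against 33.9% of all genes. None changed by over 1.5-fold at an unadjusted p under 0.05, which 0.996% of all genes did.

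AARS, which charges tRNA with alanine, had 60.1, 56.1 and 58.3 FPKM in the controls, compared with 74.4, 75.4 and 72.2 FPKM under SB-3CT. Every SB-3CT sample lay above every control, and the means of 58.2 ± 2.00 and 74.0 ± 1.64 FPKM (SD, n = 3) differed by 27.1%. The log2 change was 0.34 ± 0.04 (SE, adjusted p = 0.00645). AARS remained called in 14 of 14 alternative settings, with changes from 0.32 to 0.39 on the log2 scale. The 1.5-fold threshold, which AARS did not pass, is not among these 14.

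CARS, the cytosolic cysteine enzyme, had 28.4, 27.1 and 27.8 FPKM in the controls, compared with 33.7, 33.5 and 32.2 FPKM under SB-3CT. Here too the groups were apart, with a rise of 19.1% and a log2 change of 0.24 ± 0.04 (SE, adjusted p = 0.0169). Leaving out any control, or SB-3CT replicate 2 or 3, moved its adjusted p to between 0.0532 and 0.0715 with the change at 0.23 to 0.26 (log2).

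EPRS, the fused glutamate and proline enzyme, moved the other way. It had 36.4, 36.3 and 36.3 FPKM in the controls, compared with 32.5, 26.2 and 27.3 FPKM under SB-3CT. All SB-3CT samples were lower, replicate 1 the least so, and the mean fell by 21.1% (log2 change -0.34 ± 0.08, SE, adjusted p = 0.0344). The call was lost on leaving out any control, or SB-3CT replicate 2 or 3, with changes from -0.34 to -0.28 and adjusted p from 0.107 to 0.139.

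DARS, the aspartate enzyme, had 20.3, 19.1 and 25.1 FPKM in the controls, compared with 17.3, 17.9 and 18.5 FPKM under SB-3CT. The groups did not overlap, but the controls were spread by replicate 3, and the log2 change of -0.24 ± 0.10 (SE, 95% interval -0.47 to -0.02) did not pass (adjusted p = 0.138). DARS shares 977 bases with DARS-AS1, an antisense lncRNA gene on the plus strand (hg19, chr2:136742694-136780163), and whether the reads were counted by strand is not given in the sources used here, so reads in the shared part cannot be assigned. DARS-AS1 itself was at 1.38, 1.34 and 0.372 FPKM in the controls, with its lowest control value in replicate 3, where DARS was highest. Its lowest value was also in the sample of highest DARS with SB-3CT (replicate 3) and with both agents (replicate 2). With IFNγ, in contrast, replicate 3 was highest for both genes (21.9 FPKM for DARS, 1.27 for DARS-AS1). The part of this overlap in the DARS values was not tested.

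Among the mitochondrial genes, CARS2 had 44.7, 43.3 and 48.1 FPKM in the controls, compared with 51.3, 51.4 and 48.3 FPKM under SB-3CT. A narrow gap separated the groups, and the log2 change was 0.15 ± 0.05 (SE, adjusted p = 0.103). AARS2 had 6.66, 6.50 and 7.37 FPKM in the controls against 7.70, 7.19 and 7.74 FPKM with SB-3CT, an overlap, with a log2 change of 0.12 ± 0.07 (SE, adjusted p = 0.275). EARS2 had 14.6, 13.8 and 14.5 FPKM against 15.0, 13.8 and 14.7 FPKM, and its change of 0.02 on the log2 scale had a 95% interval of -0.10 to 0.14.

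SB-3CT in the presence of IFNγ was compared with IFNγ alone, since the inhibitor was studied for what it does to the IFNγ-induced state. EPRS, DARS and EARS2 fell on the deposited scale, and no synthetase gene rose. These 3 lower genes of 7 stand beside 37.9% of all genes called, 6.41% higher and 31.5% lower. Groups did not overlap for 5 of the 7, 1 higher and 4 lower, against 49% of all genes. Only EPRS passed 1.5-fold at an unadjusted p under 0.05, as 7.46% of all genes did.

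EPRS had 39.7, 34.7 and 35.6 FPKM with IFNγ and 22.3, 24.7 and 21.8 FPKM with SB-3CT and IFNγ. The groups were far apart relative to their spread, at 36.7 ± 2.65 and 22.9 ± 1.57 FPKM (SD, n = 3), a level that fell by 37.5%. The log2 change was -0.65 ± 0.07 (SE, adjusted p = 0.00207), or -0.46 relative to the median gene. It was called in 14 of 14 alternatives, with changes from -0.71 to -0.29, the smallest with the dependence on transcript length taken out (adjusted p = 0.0116).

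DARS had 18.4, 19.4 and 21.9 FPKM with IFNγ and 15.1, 17 and 13.8 FPKM with both agents, all lower. Its log2 change of -0.36 ± 0.09 (SE, adjusted p = 0.0199) was -0.16 relative to the median gene, and after median ratio scaling it was -0.13 (adjusted p = 0.349). DARS also lost the call without IFNγ replicate 2 or 3 or SB-3CT and IFNγ replicate 1 or 3 (adjusted p 0.0534 to 0.083). EARS2 had 16.2, 14.7 and 15.3 FPKM with IFNγ and 12.4, 12.5 and 11.8 FPKM with both. Its change was -0.31 ± 0.06 on the log2 scale (SE, adjusted p = 0.00678), but -0.09 after median ratio scaling (adjusted p = 0.162) and 0.06 once the length trend was removed (adjusted p = 0.255).

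AARS, which had risen with SB-3CT alone, had 61.4, 45.2 and 53.8 FPKM with IFNγ and 58.2, 54.9 and 52.1 FPKM with both agents. The IFNγ samples were spread widely around the others, and the log2 change was 0.05 (95% interval -0.20 to 0.30). Relative to the median gene it was 0.25, and it was called higher after median ratio scaling (0.29, adjusted p = 0.035) and after the length trend was removed (0.33, adjusted p = 0.0374), not after quantile normalization (0.11). CARS, at 35.7, 31.1 and 32.2 FPKM with IFNγ and 32.5, 32.2 and 29.2 FPKM with both, changed by -0.07 (log2, 95% interval -0.24 to 0.09), a value that was above 0 under each of the 3 scalings.

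CARS2 had 38.5, 34.3 and 36.2 FPKM with IFNγ and 40.7, 38.5 and 39.2 FPKM with both agents. Each value with both agents was above each with IFNγ, by a narrow margin, and the log2 change of 0.12 ± 0.06 (SE) did not pass as deposited (adjusted p = 0.151). Under the 3 scalings it did, at 0.35 (median ratio, adjusted p = 0.0026), 0.23 (quantile, adjusted p = 0.0121) and 0.18 (length trend removed, adjusted p = 0.0256). AARS2 had 6.54, 6.36 and 6.49 FPKM with IFNγ and 6.01, 5.56 and 5.01 FPKM with both, lower in each sample, with a log2 change of -0.20 ± 0.08 (SE, adjusted p = 0.0946) that was 0.00 relative to the median gene.

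Transcript length differed among these genes. The canonical transcripts of the 3 genes that fell were 4862 bases for EPRS, 3099 for DARS and 5196 for EARS2. Those of AARS and CARS2, the 2 genes with a positive change, were 3437 and 1838 bases, and those of CARS and AARS2 were 2737 and 4798 bases. With the length trend removed, AARS and CARS2 were called higher and EPRS lower, and DARS, EARS2, CARS and AARS2 were not called.

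**Figure D2:**
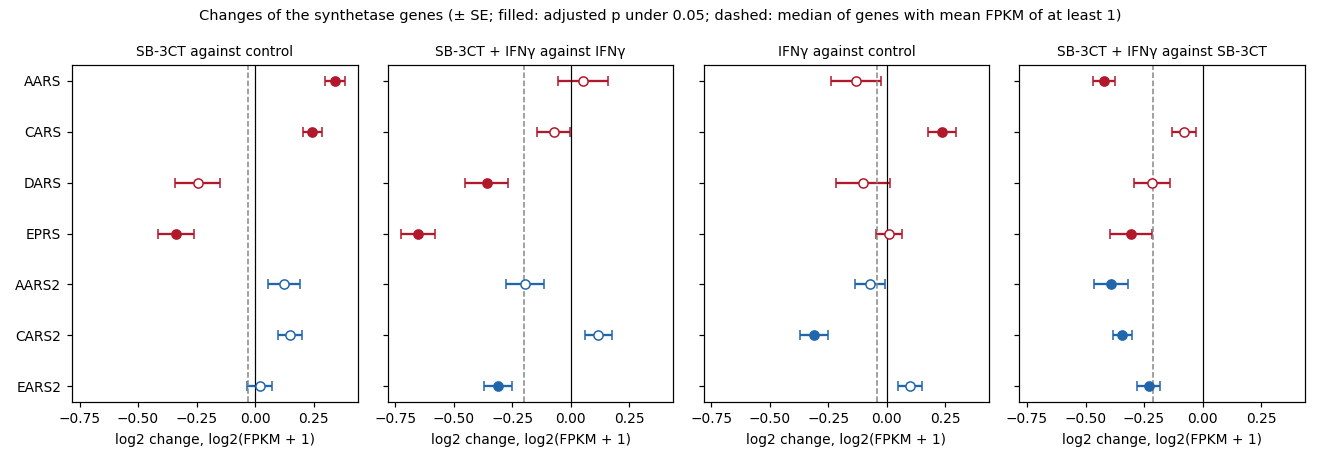
Log2 change of the 7 genes (horizontal axes, log2(FPKM + 1) scale, ± SE) in the 4 comparisons of 3 samples with 3, with cytosolic genes in red, mitochondrial genes in blue, filled points for adjusted p under 0.05 and a dashed line for the median of genes with a mean of at least 1 FPKM. EPRS was lower in both SB-3CT comparisons, at -0.34 and -0.65, and in both comparisons that involve SB-3CT with IFNγ the dashed line lies near -0.2.

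**Figure D3:**
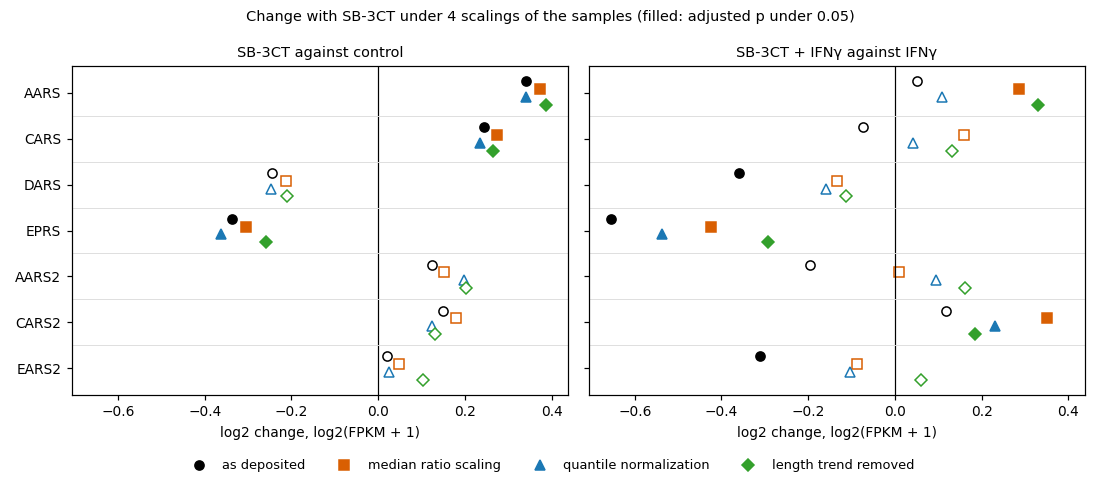
Log2 change with SB-3CT (horizontal axes, log2(FPKM + 1) scale) of the 7 genes as deposited and under 3 other scalings of the samples, filled where adjusted p was under 0.05. Without IFNγ the markers of a gene lie together, and with IFNγ they spread, EPRS staying below 0 under all 4 (-0.65 to -0.29) while CARS, AARS2 and EARS2 cross 0.

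Whether IFNγ altered the SB-3CT change was tested as an interaction over all 12 samples. The difference, the change with IFNγ minus that without, was below 0 for all 7 genes, and for 3374 of all 4918. It was called for 3 of the 7, all lower, against 22.3% of all genes called, 4.74% higher and 17.6% lower. The 3 were CARS (-0.32 ± 0.08, SE, adjusted p = 0.0188), AARS2 (-0.32 ± 0.10, adjusted p = 0.0381) and EARS2 (-0.33 ± 0.07, adjusted p = 0.0111). The AARS2 call held in 7 of 19 alternatives and was lost without control replicate 1 or 2, SB-3CT replicate 1 or 3, IFNγ replicate 1 or 3, or SB-3CT and IFNγ replicate 2 or 3 (adjusted p 0.0676 to 0.0941), with the replicate block (adjusted p = 0.0502) and under the scalings. The median over genes with a mean of at least 1 FPKM was -0.19, and under each of the 3 scalings 0 of the 7 were called by limma, with 2 at an unadjusted p under 0.05 after median ratio scaling, 2 after quantile normalization and 0 with the length trend removed. EPRS had a difference of -0.32 ± 0.11 (SE, adjusted p = 0.0621) and AARS of -0.29 ± 0.12 (SE, adjusted p = 0.116), and neither passed. The EPRS difference did pass without SB-3CT replicate 2, IFNγ replicate 2 or SB-3CT and IFNγ replicate 2 (adjusted p 0.0381 to 0.0492) and among genes with a mean of at least 1 FPKM (adjusted p = 0.0347). Without IFNγ replicate 2, the sample with the lowest AARS, the AARS difference was -0.40 (adjusted p = 0.00661).

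IFNγ without SB-3CT was compared with control, and it moved the 2 cysteine enzymes in opposite directions. CARS rose and CARS2 fell, 1 higher and 1 lower of the 7, where 19.5% of all genes were called, 8.46% higher and 11% lower. Groups did not overlap for 3 of the 7, 2 higher and 1 lower, against 36.9% of all genes, and none of the 7 was among the 4.76% past 1.5-fold at an unadjusted p under 0.05. The 3 IFNγ values of CARS, the lowest 31.1 FPKM, were above all controls, the highest 28.4 FPKM (log2 change 0.24 ± 0.06, SE, adjusted p = 0.0375). The 3 values of CARS2, the highest 38.5 FPKM, were below all controls, the lowest 43.3 FPKM (-0.31 ± 0.06, SE, adjusted p = 0.0165). Both kept their direction in 14 of 14 alternatives. The call of CARS was lost without any control or without IFNγ replicate 3 (adjusted p 0.09 to 0.121), and that of CARS2 without control replicate 1 or 3 or IFNγ replicate 3 (0.0569 to 0.0638).

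The other 5 genes did not pass as deposited. EARS2, whose groups did not overlap, was called higher after median ratio scaling (0.14, adjusted p = 0.0311). EPRS was at 36.7 FPKM with IFNγ against 36.3 in the controls (log2 change 0.01, 95% interval -0.13 to 0.15). The interval was -0.39 to 0.13 for AARS, -0.38 to 0.18 for DARS, -0.22 to 0.08 for AARS2 and -0.03 to 0.23 for EARS2.

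IFNγ in the presence of SB-3CT was compared with SB-3CT alone, so that the same samples with both agents enter as above. On the deposited scale, all 7 changes were below 0, as were those of 3544 of all 4918 genes. Of the 7 genes, 5 fell at an adjusted p under 0.05, against 40.5% of all genes called, 7.85% higher and 32.7% lower. Groups did not overlap for 6 of 7, all lower, against 51.7% of all genes, and none of the 7 was among the 5.65% past 1.5-fold at an unadjusted p under 0.05. AARS fell the most in FPKM terms among the cytosolic genes, from 74.0 ± 1.64 with SB-3CT to 55.1 ± 3.07 FPKM with both (SD, n = 3). With both agents 1 of 3 samples was within the range of the AARS controls. The others, at 54.9 and 52.1 FPKM, were below the lowest control (56.1 FPKM). Its log2 change was -0.42 ± 0.05 (SE, adjusted p = 0.00159) and -0.21 relative to the median gene, and it was called in 14 of 14 alternatives (-0.46 to -0.17). The other 4 genes that fell were AARS2 (-0.39, adjusted p = 0.00847), CARS2 (-0.34, adjusted p = 0.00174), EPRS (-0.31, adjusted p = 0.0385) and EARS2 (-0.23, adjusted p = 0.0119). After median ratio scaling only AARS was called, and these 4 stood between -0.18 and 0.00. The call of EPRS was also lost without SB-3CT replicate 1 or 3 or any sample with both agents (adjusted p 0.0503 to 0.121).

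Cytosolic and mitochondrial enzymes for the same amino acid were then set against each other within each sample, where a scaling factor of the sample drops out. For 12 comparisons of 3 ratios, the exact two-sided permutation test of 3 samples against 3 cannot give a p under 0.1, so none can pass 0.05, and 9 of the 12 reached that smallest value.

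Control samples had ratios of AARS to AARS2 of 9.03, 8.63 and 7.92, SB-3CT samples of 9.66, 10.5 and 9.32, IFNγ samples of 9.38, 7.11 and 8.29, and samples given both agents of 9.69, 9.88 and 10.4. It was higher with SB-3CT in every sample, both without IFNγ (log2 difference 0.20 ± 0.07, SE) and with it (0.28 ± 0.12, SE), and the exact p was 0.1 both times. IFNγ moved it less than its spread (-0.05 and 0.03, exact p = 0.7 each). With the length trend removed, the SB-3CT difference was 0.16 without IFNγ and 0.15 with IFNγ (log2). As deposited, the difference with IFNγ ran from 0.18 without IFNγ replicate 2 to 0.38 without IFNγ replicate 1.

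Control samples had ratios of CARS to CARS2 of 0.636, 0.627 and 0.579, SB-3CT samples of 0.657, 0.651 and 0.666, IFNγ samples of 0.927, 0.906 and 0.889, and samples given both agents of 0.798, 0.835 and 0.744. The groups with IFNγ lay above those without it, by 1.48-fold without SB-3CT (log2 difference 0.56 ± 0.05, SE) and 1.20-fold with it (0.27 ± 0.05, SE). With SB-3CT the ratio was higher in the absence of IFNγ (0.10 ± 0.04, log2) and lower in its presence (-0.20 ± 0.05, log2), each at the smallest exact permutation p of 0.1. The latter was -0.053 with the length trend removed.

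Control samples had ratios of EPRS to EARS2 of 2.49, 2.63 and 2.51, SB-3CT samples of 2.17, 1.90 and 1.86, IFNγ samples of 2.45, 2.35 and 2.33, and samples given both agents of 1.80, 1.98 and 1.85. It was lower with SB-3CT, by -0.37 ± 0.07 (log2 difference, SE) without IFNγ and by -0.34 ± 0.05 (SE) with it. The groups did not overlap (exact permutation p = 0.1 both times). IFNγ changed this ratio by -0.10 ± 0.03 (SE) without SB-3CT, again with no overlap (exact permutation p = 0.1). In the presence of SB-3CT the IFNγ change was -0.07 ± 0.08 (SE), with overlap (exact permutation p = 0.5). The mean of the 4 cytosolic genes minus that of the 3 mitochondrial genes, a value without a test, stood at 1.03 ± 0.01 for controls, 0.92 ± 0.02 for SB-3CT, 1.13 ± 0.04 for IFNγ and 1.01 ± 0.06 for both agents (log2, SD, n = 3). With SB-3CT, then, the ratio of the cytosolic to the mitochondrial gene was higher for alanine and lower for glutamate, and EPRS stayed above EARS2 in every sample.

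**Figure D4:**
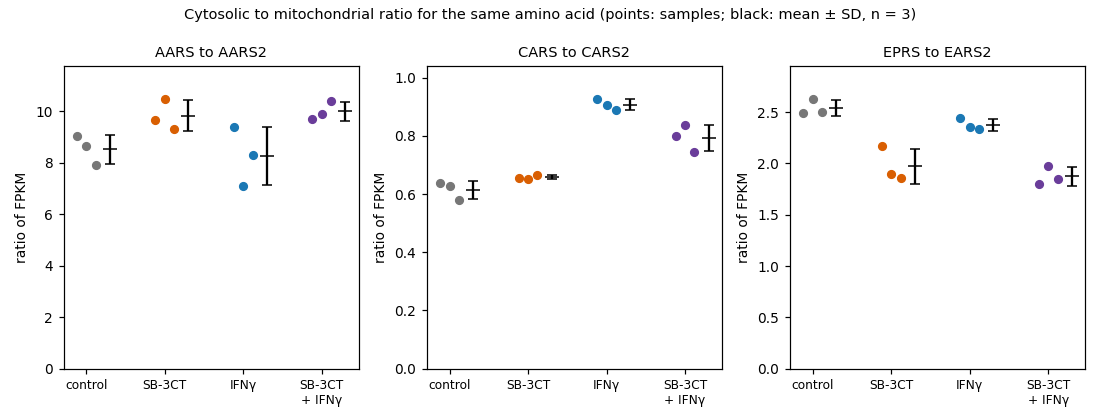
Ratio of FPKM of the cytosolic to the mitochondrial enzyme for the same amino acid (vertical axes, from 0) in each sample, with black bars for the mean ± SD (n = 3). AARS to AARS2 was higher and EPRS to EARS2 lower in both groups with SB-3CT, and CARS to CARS2 was highest with IFNγ, at 0.907.

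By the smallest root mean square difference over the 12 samples, after centring, among 3170 genes with a mean of at least 1 FPKM, the profile nearest to AARS was that of EML2 (0.0443 on the log2 scale), then C15orf52 and DHDDS. CARS lay nearest to ENO1 (0.0383), with ACOT7 also among its nearest, and EPRS to DENND4C (0.0379), then EPB41 and DHX15. DARS had no close neighbour, with BCAM at 0.0999 first, then BICD2 and ALG10. Of the mitochondrial genes, AARS2 lay nearest to ABCF3 (0.0443), ASCC2 and APEX2, CARS2 to EIF1B (0.0532), BCAT2 and ADAMTSL5, and EARS2 to CANT1 (0.0319), EHBP1L1 and DENND4B. Among the 7 genes themselves, AARS and CARS2 were the closest pair (0.103) and AARS and EPRS the farthest apart (0.365). These distances share the libraries and the scale of the samples, and they are descriptions.

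Genes of the same pathway were followed in lists of related genes. The lists were chosen with earlier results of these data known, so their counts and order are descriptions. In SB-3CT against control, the amino acid response list, genes that ATF4 and its partners are known to control, moved most. Of its 14 genes 7 were higher and 0 lower, against 5.37% and 6.87% of all genes. Its median log2 change was 0.33, where the median of all genes was -0.01. CHAC1, which degrades glutathione, rose from 5.50 ± 0.360 to 13.6 ± 0.998 FPKM (SD, n = 3), a log2 change of 1.17 (adjusted p = 0.000533). DDIT3, the stress factor CHOP, rose from 18.3 ± 1.27 to 35.3 ± 3.72 FPKM (0.91, adjusted p = 0.00247), and ATF3, a stress-induced transcription factor, from 4.07 ± 0.168 to 7.79 ± 0.456 FPKM (0.79, adjusted p = 0.00241). Under the 3 scalings 8, 10 and 8 of the 14 were higher and at most 1 was lower. Of the 14 genes, 12 had a RefSeq promoter, some more than 1, and 4 of these genes held TGATGNAA, as 3.62% of all promoters did. It was also present in AARS and in the first CARS promoter. ASNS, ATF3 and CHAC1 held it and were called higher, but DDIT3, ATF4 and ATF5 were called higher without it. CEBPG held it and was not called (limma, adjusted p = 0.118). Any part of this motif in the changes was not tested.

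In SB-3CT with IFNγ against IFNγ, 5 of the 14 were higher and 1 lower, against 6.41% and 31.5% of all genes. The median was 0.11, beside -0.20 for genes with a mean of at least 1 FPKM. Median ratio scaling gave 8 higher and 0 lower, quantile normalization 7 and 1, and removal of the length trend 7 and 0. DDIT3 rose from 19.3 ± 0.250 to 46.3 ± 2.40 FPKM (log2 change 1.22, adjusted p = 0.000232), and ASNS, asparagine synthetase, from 42.8 ± 1.87 to 75 ± 2.58 FPKM (0.80, adjusted p = 0.00139). CHAC1 rose by 0.64 (log2, adjusted p = 0.00209) and ALDH18A1, an enzyme of proline synthesis, fell by 0.35 (log2, adjusted p = 0.00492). AARS and CARS did not pass in this comparison as deposited. With IFNγ against control 3 of 14 were higher and 1 lower (8.46% and 11% of all genes), led by ATF3 (1.55, adjusted p = 1.59e-05). With both agents against SB-3CT 4 were higher and 3 lower (7.85% and 32.7% of all genes), led by ATF3 (0.82, adjusted p = 0.000436). In the interaction 0 were higher and 3 lower as deposited, where 4.74% of all genes were higher and 17.6% lower. Median ratio scaling gave 2 higher and 1 lower there, quantile normalization 1 and 3, and removal of the length trend 1 and 3.

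The eIF2 list, eIF2, its exchange factor eIF2B and the kinases that act on it, had 0 of 12 called by limma for SB-3CT against control, with 3 at an unadjusted p under 0.05. With IFNγ present, SB-3CT lowered 8 of 12 and raised 0, with a median of -0.31, where 31.5% of all genes were lower and the median of genes with a mean of at least 1 FPKM was -0.20. EIF2AK4, the kinase GCN2 that senses uncharged tRNA, fell from 12.5 ± 0.620 to 7.57 ± 0.521 FPKM (-0.65, adjusted p = 0.00207). EIF2AK2, the interferon-induced kinase PKR, fell from 23.3 ± 2.61 to 11.7 ± 0.985 FPKM (-0.93, adjusted p = 0.00207), and EIF2AK1, the heme-regulated kinase, from 16.3 ± 1.42 to 8.78 ± 2.82 FPKM (-0.86, adjusted p = 0.00958). Under the 3 scalings 4 to 6 of the 12 were lower and 1 or 2 higher. IFNγ alone raised EIF2AK2 (1.21, adjusted p = 0.000324) and EIF2AK1 (0.48, adjusted p = 0.00634) and lowered 3 genes of the list, among them EIF2B2 (-0.47, adjusted p = 0.000874), a subunit of eIF2B. With both agents against SB-3CT 1 was higher and 8 were lower as deposited, and 4 or 5 were lower under the scalings. In the interaction 0 were higher and 6 lower as deposited. After median ratio scaling the counts were 1 and 1, after quantile normalization 0 and 1, and with the length trend removed 2 and 1. Of all genes, 12.2% were called for SB-3CT alone, and 8.46% were higher and 11% lower with IFNγ alone. With both agents against SB-3CT 7.85% were higher and 32.7% lower, and in the interaction 4.74% and 17.6%.

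The list of the multisynthetase complex and of editing factors, in which EEF1E1 (AIMP3), AIMP1 and AIMP2 are the scaffold proteins of the complex that holds EPRS and DARS, had 0 of 6 higher and 1 lower with SB-3CT alone. That gene was EEF1E1, at 48.3 ± 3.38 FPKM in the controls and 38.9 ± 0.593 with SB-3CT (-0.30, adjusted p = 0.0214). Of all genes, 5.37% were higher and 6.87% lower in this comparison. With IFNγ 5 of 6 were lower and 0 higher, against 11% and 8.46% of all genes. Among them were EEF1E1 at -0.39 (adjusted p = 0.0295), DTD2, a D-aminoacyl-tRNA deacylase, at -0.35 (adjusted p = 0.0275) and AIMP1 at -0.32 (adjusted p = 0.0115). Under the scalings 3 to 5 were lower. SB-3CT with IFNγ against IFNγ raised 2 of 6 and lowered 0, against 6.41% and 31.5% of all genes. The 2 were EEF1E1, by 0.30 (adjusted p = 0.0263), and the deacylase DTD1, by 0.23 (adjusted p = 0.0131), while EPRS and DARS fell. Both agents against SB-3CT gave 1 higher and 3 lower as deposited, where 7.85% of all genes were higher and 32.7% lower. The counts were 1 and 0 after median ratio scaling, 1 and 1 after quantile normalization, and 0 and 2 with the length trend removed. AIMP2 stood at -0.17 as deposited and 0.08 after median ratio scaling, and DTD1 at -0.15 as deposited and 0.10 after it. In the interaction 2 were higher and 0 lower, against 4.74% and 17.6% of all genes. Under the scalings 3 or 4 were higher and 0 lower.

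Delivery of charged tRNA to the ribosome rests on the elongation factors. With SB-3CT alone EEF2, the translocase, rose from 485 ± 16.3 to 585 ± 10.2 FPKM (0.27, adjusted p = 0.0181). EEF1A1, the main carrier of charged tRNA, fell from 2179 ± 32 to 1809 ± 78.6 FPKM (-0.27, adjusted p = 0.035). That made 1 higher and 1 lower of 6, against 5.37% and 6.87% of all genes. Median ratio scaling gave 2 higher and 0 lower, quantile normalization 1 and 0, and removal of the length trend 1 and 1. The fall of EEF1A1 was thus not called under median ratio scaling or quantile normalization. With IFNγ present SB-3CT raised 2 of 6 and lowered 0 as deposited, against 6.41% and 31.5% of all genes. Here median ratio scaling gave 3 higher and 0 lower, quantile normalization 1 and 1, and removal of the length trend 2 and 0. As deposited, EEF1B2 rose from 433 ± 11.7 to 598 ± 22.5 FPKM (0.47, adjusted p = 0.00234) and EEF1A2 by 0.22 (adjusted p = 0.0341). IFNγ lowered the same 2 genes in the absence of SB-3CT, EEF1A2 by -0.75 (adjusted p = 0.00136) and EEF1B2 by -0.36 (adjusted p = 0.00686), and raised 0. Of all genes, 11% were lower and 8.46% higher there. With both agents against SB-3CT 1 was higher and 2 were lower, against 7.85% and 32.7% of all genes. The counts were 3 and 1 after median ratio scaling, 0 and 3 after quantile normalization, and 2 and 1 with the length trend removed. In the interaction 1 was higher and 1 lower, against 4.74% and 17.6% of all genes. Under the same 3 scalings that became 1 and 0, 0 and 1, and 2 and 0.

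Genes of tRNA modification and processing were called at shares near those of all genes, 1 higher and 2 lower of 26 with SB-3CT alone (12.2% of all genes called) and 2 higher and 8 lower with SB-3CT and IFNγ against IFNγ (31.5% of all genes lower). In the latter CTU1, which thiolates the wobble uridine, rose from 14.3 ± 1.11 to 20.7 ± 0.270 FPKM (0.51, adjusted p = 0.00244), and ADAT1, a tRNA adenosine deaminase, fell from 8.70 ± 1.24 to 5.23 ± 0.381 FPKM (-0.63, adjusted p = 0.0046). The balance of this list depended on the scaling, since 7 were higher and 3 lower after median ratio scaling. IFNγ alone gave 0 higher and 2 lower, both agents against SB-3CT 1 and 9, and the interaction 2 and 2. Of all genes, 8.46% were higher and 11% lower with IFNγ alone. With both agents against SB-3CT 7.85% were higher and 32.7% lower, and in the interaction 4.74% and 17.6%. After median ratio scaling, quantile normalization and removal of the length trend, both agents against SB-3CT gave 4 and 0, 1 and 2, and 2 and 4, and the interaction 3 and 0, 1 and 0, and 3 and 0. The 8 genes of mitochondrial translation, which use what AARS2, CARS2 and EARS2 charge, had 0 called by limma with SB-3CT alone and 1 at an unadjusted p under 0.05. With IFNγ present 2 were higher and 1 was lower, against 6.41% and 31.5% of all genes. CHCHD1, a protein of the mitochondrial ribosome, rose from 70.1 ± 10.2 to 102 ± 2.42 FPKM (0.55, adjusted p = 0.0049). Median ratio scaling gave 5 higher and 0 lower, quantile normalization 1 and 0, and removal of the length trend 1 and 1. IFNγ alone gave 0 higher and 1 lower, both agents against SB-3CT 1 and 3, and the interaction 1 and 1, beside the shares of all genes given above.

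**Figure D5:**
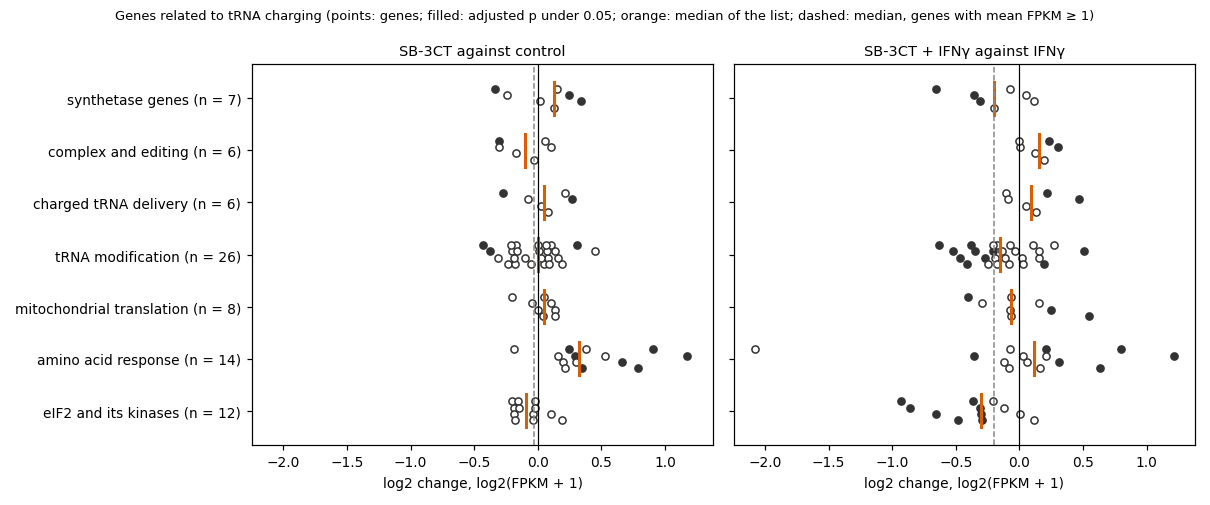
Log2 change (horizontal axes, log2(FPKM + 1) scale) of each gene in 7 lists related to tRNA charging, with filled points for adjusted p under 0.05, an orange bar for the median of a list and a dashed line for the median of genes with a mean of at least 1 FPKM. With SB-3CT alone the amino acid response list stands to the right, with a median of 0.33 and 7 of 14 genes called, and with IFNγ present the eIF2 list stands to the left, with a median of -0.31.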

How the data were processed

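RNA was sequenced from 12 samples of A375 cells, 3 in each of 4 groups. The authors aligned paired-end reads to hg19 with HISAT2 2.0.5 and calculated FPKM with StringTie 1.3.3 (versions per the submitters' processing notes). The values the authors deposited are on the log2 scale, as log2(FPKM + 1), reaching at most 12.2, and no further logarithm was taken. FPKM was taken back as 2 to the power of the value minus 1. Of the per-sample columns, 0 were left unused. A log2 change understates that of genes with low FPKM.

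Each comparison was fitted in R 4.3.3 by limma 3.58.1 (lmFit, then eBayes allowing a variance trend) on its own 3 + 3 samples without pairing, and the interaction on all 12. Fits ran on all 4918 genes, with Benjamini-Hochberg adjustment over them, and a gene was called at an adjusted p under 0.05. The code was first tested on simulated data. Named genes were the 7 synthetases, the called genes with the largest rise and fall of each list (up to 3 each way) at a mean of at least 1 FPKM, of which some are given only as counts, the 3 nearest profiles and DARS-AS1. Some results under this rule are not reported here. Members and lists were chosen with earlier results of these data known. Lengths came from GENCODE release 44 mapped to hg19 for 98.6% of symbols. Alternatives were a pseudocount of 0.1, only genes with a mean of at least 1 FPKM, and 3 scalings (median ratio, quantile, length trend removed with the summed FPKM kept). Others were a replicate block, eBayes without trend, all groups in 1 fit and each sample left out. Together these make 14 alternatives per gene in a comparison and 19 in the interaction. A 1.5-fold threshold was applied apart from them.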

Additional observations from a re-analysis of the deposited data

Results flagged for a closer look

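The SB-3CT change differed between cells with and without IFNγ, by limma's interaction term over 12 samples, for CARS (-0.32 on the log2 scale, 0.24 without IFNγ and -0.07 with it), for AARS2 (-0.32, 0.12 and -0.20) and for EARS2 (-0.33, 0.02 and -0.31). None of these 3 was called under any of the 3 scalings, where the values lay between -0.19 and -0.04.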

How the results depend on the processing

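Of 525 values of the 7 genes under alternatives, 424 kept direction and side of the threshold, 61 lost the call, 14 gained it and 26 changed sign, and of 980 values of the other named genes 797, 178, 0 and 5 did. Changes of sign, all uncalled and on the log2 scale, follow by setting. Median ratio scaling gave, for SB-3CT with IFNγ against IFNγ, AARS2 0.0084 and CARS 0.16, for both agents against SB-3CT, CARS 0.16, DARS 0.018, EARS2 0.0016, AIMP2 0.081 and DTD1 0.099, and for the interaction, CARS2 0.17 and DARS 0.079. Quantile normalization gave AARS2 0.096, CARS 0.042 and AURKAIP1 -0.0034 against IFNγ, CARS 0.051 against SB-3CT, and CARS2 0.11 and DARS 0.090 in the interaction. Removing the length trend gave AARS2 0.16, CARS 0.13, EARS2 0.061 and AURKAIP1 -0.013 against IFNγ, CARS 0.076 and DTD1 0.055 against SB-3CT, EPRS -0.057 for IFNγ, and CARS2 0.053 and DARS 0.096 in the interaction. With a sample left out, values that changed sign ran, for SB-3CT alone, from -0.0054 to 0.051 (EARS2), against IFNγ from -0.062, without IFNγ replicate 2, to 0.15 (AARS), for IFNγ from -0.18 to 0.011, without control replicate 3 (DARS) and from -0.046 to 0.048 (EPRS), and in the interaction from -0.073 to 0.011 (CARS2).

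The count of synthetase genes called with SB-3CT alone, 3, ran from 1 to 3 with a sample left out, that with IFNγ, 2, from 0 to 2, and that in the interaction, 3, from 2 to 5, the last without IFNγ replicate 2. The 1.5-fold threshold gave 0 for SB-3CT alone, 1 for SB-3CT with IFNγ, 0 for IFNγ and 0 for both agents against SB-3CT. For the last, 5 as deposited, median ratio scaling gave 1, quantile normalization 2, the length trend 2 and the replicate block 3, and the 3 scalings gave 0, 0 and 0 in the interaction. Removing the length trend moved the log2 difference of CARS to CARS2 from -0.20 to -0.053 against IFNγ and from 0.27 to 0.34 against SB-3CT. Over all genes, the 602 calls of SB-3CT alone became 259 with the block and 73 to 912 with a sample left out, the 958 of IFNγ 562 to 982, and the 1862 of SB-3CT with IFNγ 1230 to 1977. Median ratio scaling turned the 1994 calls of both agents against SB-3CT into 1204, and median ratio scaling and quantile normalization the 1099 of the interaction into 657 and 640 (678 to 1450 with a sample left out). The split of higher and lower calls for SB-3CT with IFNγ, 315 and 1547, was 763 and 811 after median ratio scaling, and for both agents against SB-3CT 386 and 1608 became 657 and 547. The cause of these moves was not tested, except that fits without a sample rest on fewer samples.

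Replicate numbers did not pair samples: correlations of deviations between same-numbered samples ran from -0.395 to 0.172. With the replicate block, EPRS had an adjusted p of 0.0564 for SB-3CT alone and 0.0862 for both agents against SB-3CT, EARS2 0.0547 in the latter and AARS2 0.0502 in the interaction. Absolute depth is unknown, so counting error is not given, and the 3 samples of a group limit the precision.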
